A study of Mus musculus with 8 samples.

Results

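The comparison described here is the change in whole testis RNA of Dnmt3a mutant mice between 19 and 25 days post partum (dpp). It used the 4 mutant libraries of the 8 in the series, 2 at each age, chosen by their labels. All mice were C57BL/6 males. The mutant group carried Dnmt3A KO/KO and the comparison group Dnmt3A WT/WT, called KO and WT below, and no other allele or agent was named. The sources used here do not give the Dnmt3a exons that the mutants lacked, the cells concerned, or whether the 2 libraries of a group came from separate animals. The p-values therefore measure only the spread between these libraries, which may be technical.

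Dnmt3a encodes a DNA methyltransferase that places new methyl marks on DNA in the prospermatogonia of the fetal testis. In the young mouse, the first wave of germ cells moves together from spermatogonia through meiotic prophase to haploid spermatids, so that RNA of the whole organ follows the oldest germ cells present. The rest of the organ is made of Sertoli cells, which enclose the germ cells in tubules, of contractile myoid cells around the tubules, and of interstitial Leydig, stromal, vascular and immune cells. A bulk library measures each gene as a share of all RNA, so fewer cells of a type and less RNA per cell cannot be told apart, and a rise of germ cell RNA lowers the share of other cells.

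The 4 KO libraries held between 22515812 and 33864327 counts in genes and the 4 WT libraries between 27142989 and 50445334. Levels are given as CPM, counts per 1000000 counts in genes after scaling with TMM, which corrects library size for RNA composition. A change is the log2 ratio of the older to the younger libraries, given with its standard error (SE) and an adjusted p (edgeR's quasi-likelihood test, Benjamini-Hochberg over 23353 genes). A gene was called when that p was under 0.05. The labelled tissue held the RNA of its defining cell types at both ages in KO, with the germ cell gene Ddx4 at 74.1 and 128 CPM at 19 dpp and the Sertoli cell gene Clu at 5087 and 4427 CPM. The libraries of KO at 19 dpp differed from each other in blood RNA: the globin Hba-a1 was at 132 and 20.3 CPM in replicates 1 and 2 of KO at 19 dpp and at 11.2 and 8.52 CPM at 25 dpp. Its near-identical copies share reads, and the part of blood in other results was not tested.

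Between 19 and 25 dpp, 2379 genes rose and 2072 fell in the KO testis, which is 10.2% and 8.87% of the genes tested, 19.1% in all. Germ cell genes of meiotic prophase led the rises, and genes of matrix, vessels, Leydig cells and macrophages were among the falls. Of the called genes, 810 rose and 411 fell by more than 4-fold. The genes tested include some with hardly a count outside WT at 25 dpp. Such genes could not be called in KO and lower the shares above, which are set beside the gene lists below. With only the KO libraries fitted, 19307 genes were tested, of which 3389 rose and 3309 fell. The WT testis changed in more genes over the same 6 days, 8151 up (34.9%) and 5928 down (25.4%), 60.3% in all. Of these, 5033 rose and 382 fell by more than 4-fold, so falls of that size were not more numerous than in KO. The WT changes were called from libraries with more counts at 25 dpp. Of the 2379 rises in KO, 1390 also rose in WT, which is 58.4% of the KO rises and 17.1% of the WT rises. Of the 2072 falls in KO, 1315 also fell in WT, 63.5% of the KO falls and 22.2% of the WT falls. Another 213 genes rose in KO and fell in WT, and 118 fell in KO and rose in WT. The difference between both changes was called in all of these 331. Calls in opposite directions within the same fit nearly ensure this, so it adds no separate support. That difference was called in 4464 genes (19.1%), higher in KO for 1793 (7.68%) and lower for 2671 (11.4%).

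**Figure D1:**
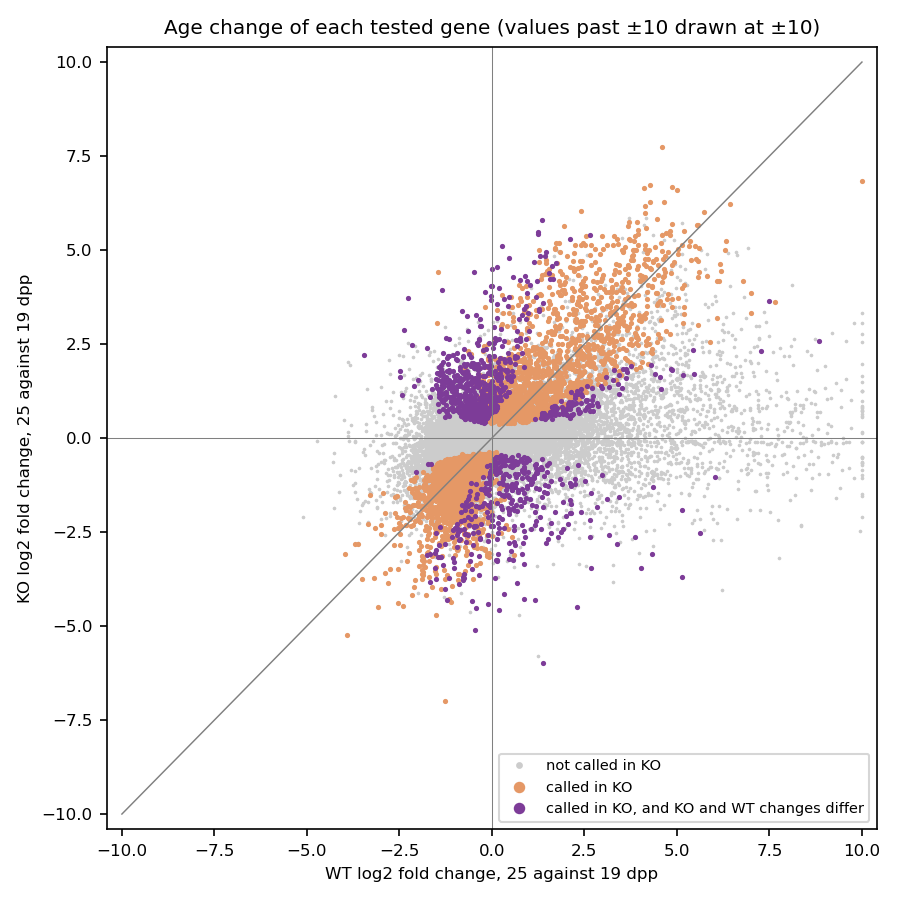
Log2 change from 19 to 25 dpp of each tested gene with counts in all 4 groups (21358 genes), WT on the horizontal and KO on the vertical axis. Orange genes were called in KO, purple genes were called in KO and also differed between KO and WT, and the diagonal marks equal change. Most KO rises lie on the side where WT also rose, while a purple group at the upper left rose in KO and fell in WT.

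The counts depended on single libraries and on scaling. With replicate 1 of KO at 19 dpp left out, edgeR called 17 genes (4868 at an unadjusted p under 0.05) and DESeq2, whose fits without 1 library were added after seeing the data, called 3336. Below, counts with 1 KO library left out are given in the order replicate 1 and 2 at 19 dpp, then replicate 1 and 2 at 25 dpp. The order for all genes was 17, 1617, 1490 and 482 with edgeR and 3336, 4842, 4758 and 4238 with DESeq2. When libraries were scaled to the sum of Sertoli markers in place of TMM, the median of all genes moved from 0.00 to 0.29, 1915 genes rose and 640 fell, so that 75.0% of calls were rises against 53.4% with TMM. For the difference between KO and WT, 40.2% of calls were higher in KO with TMM, 6.50% with Sertoli scaling, 32.2% with DESeq2's size factors and 73.8% with total counts, which moved the median of all genes to −0.57, −0.12 and 0.52. Of the 56 genes named here whose difference was called, 26 were called with Sertoli scaling, and leaving out 1 of the 8 libraries left between 22 and 49.

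The mutated gene, Dnmt3a (chromosome 12, 3806007 to 3914443, mm10), had 114 and 112 CPM in KO libraries at 19 dpp and 76.9 and 67.2 CPM at 25 dpp. Both older libraries were below both younger ones, a change of −0.65 (SE 0.18, adjusted p = 0.0422). In WT it went from 147 and 141 to 48.7 and 70.0 CPM. Counts over the whole gene include any exons that a deletion leaves in place, so these levels check no genotype. Among the 22 writers, readers and erasers of DNA methylation tested, 2 rose and 4 fell, where 10.2% of all genes rose and 8.87% fell. The median of the list was 0.00 (0.31 with Sertoli scaling) beside 0.00 over all genes. The 4 that fell were Dnmt3a and the 3 TET dioxygenases, which oxidise methylcytosine. Tet3 was at 232 and 236 CPM at 19 dpp and at 104 and 87.9 CPM at 25 dpp, a change of −1.29 (SE 0.20, adjusted p = 0.00883). Tet2 changed by −1.11 and Tet1 by −1.10 (adjusted p = 0.0192 and 0.0276), and all 4 of these genes also fell in WT. The 2 that rose were Nsd2, a histone H3 lysine methyltransferase, from 127 and 172 to 259 and 293 CPM, and Uhrf1, which guides maintenance methylation, from 46.2 and 76.2 to 108 and 108 CPM. With 1 KO library left out, edgeR called 0, 1, 1 and 0 of the falls (4, 4, 5 and 3 at an unadjusted p under 0.05), and DESeq2 called 1, 3, 3 and 2. The balance turned to 5 rises and 3 falls with DESeq2 size factors and to 7 rises and 4 falls with DESeq2's Wald test.

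Undifferentiated spermatogonia are the stem and progenitor cells of the testis. Of 21 of their genes tested, 1 rose and 1 fell in KO, where 19.1% of all genes were called, and the median was −0.48. The change was below 0 for 18 of the 21 with TMM. With Sertoli scaling it was below 0 for 14, and edgeR called 0 falls. Id4, a transcription regulator of stem spermatogonia that Sertoli cells and spermatocytes also hold, rose from 19.6 and 23.9 to 41.8 and 57.4 CPM, and Bcl6b, a GDNF-responsive repressor, fell from 6.54 and 6.22 to 2.16 and 3.59 CPM. Etv5, another GDNF-responsive factor, was at 80.1 and 88.6 CPM at 19 dpp and 52.0 and 62.1 CPM at 25 dpp (adjusted p = 0.0708). Zbtb16 (PLZF) stood at 42.2 and 51.4 CPM at 19 dpp and at 63.3 and 35.6 CPM at 25 dpp, so its ages overlapped, while in WT it went from 54.5 and 41.8 to 14.0 and 16.8 CPM. Foxo1, a stem cell transcription factor, was at 70.1 and 77.7 CPM at 19 dpp and 64.5 and 64.4 CPM at 25 dpp in KO and went from 73.8 and 66.8 to 25.4 and 35.2 CPM in WT. In WT 12 of the 21 fell, with a median of −1.22.

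Of 17 tested genes of differentiating spermatogonia and of meiotic entry, 8 rose and 1 fell in KO (median 0.95), whereas 3 rose and 11 fell in WT (median −1.08). Stra8 (chromosome 6, 34920163 to 34939344, mm10), which retinoic acid induces as germ cells enter meiosis, was at 45.5 and 73.0 CPM at 19 dpp and at 118 and 135 CPM at 25 dpp. Both older libraries exceeded both younger ones, a change of 1.10 (SE 0.27, adjusted p = 0.0312). In WT, Stra8 went the other way, from 125 and 88.1 to 29.4 and 37.7 CPM, a change of −1.66 (SE 0.27, adjusted p = 0.00234). Taf4b, a germ cell subunit of the general factor TFIID, rose by 0.95 (SE 0.17, adjusted p = 0.0123) and changed by −1.08 in WT, also a call. Dazl, an RNA-binding protein of germ cells, rose from 179 and 329 to 633 and 778 CPM, and Sohlh2 and Rhox13, regulators of differentiating spermatogonia, rose by 1.20 and 1.34 (adjusted p = 0.0363 and 0.0321). Tex101, a germ cell surface protein, rose from 50.4 and 115 to 475 and 576 CPM, a change of 2.67 (SE 0.38, adjusted p = 0.00930). Dmrt1, a regulator of meiotic entry also made by Sertoli cells, was at 138 and 181 CPM at 19 dpp and 124 and 115 CPM at 25 dpp (adjusted p = 0.186). The 1 fall was Ccnd2, the D-type cyclin of dividing spermatogonia, from 88.8 and 103 to 40.7 and 42.2 CPM. Leaving out 1 KO library gave 0, 9, 3 and 0 rises with edgeR (8, 9, 8 and 8 unadjusted) and 7, 9, 6 and 8 with DESeq2.

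Early meiotic prophase was the list with the largest share of rises. Of its 35 tested genes, 33 rose in KO, where 10.2% of all genes rose, and the remaining 2, Rec114 and Mei4, were higher in both older libraries without passing the test (adjusted p = 0.104 and 0.0545). The median change was 1.82. In WT 6 rose and 8 fell, with a median of −0.24, and the difference between KO and WT was called for 27, all in the direction of a higher KO change. The summed level of the list was 1008 and 1643 CPM at 19 dpp and 4137 and 5543 CPM at 25 dpp in KO, and in WT it was 3848 and 4335 CPM and 5228 and 5269 CPM at these ages. With 1 KO library left out, edgeR called 0, 31, 27 and 5 rises (33, 35, 34 and 34 at an unadjusted p under 0.05), and DESeq2 called 33, 35, 33 and 32.

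That list also holds genes of break formation and repair, of which several rose in KO. Spo11 (chromosome 2, 172977700 to 172993576, mm10), whose product makes the breaks that start recombination, was at 4.11 and 7.87 CPM at 19 dpp and at 36.0 and 38.8 CPM at 25 dpp. All older KO libraries exceeded the younger ones, by 2.63 (SE 0.33, adjusted p = 0.00754). Prdm9, the histone methyltransferase that marks break sites, rose from 28.2 and 42.4 to 82.5 and 106 CPM in KO and fell from 58.3 and 54.8 to 20.8 and 23.9 CPM in WT. Dmc1, the meiotic strand exchange protein, did likewise, from 27.1 and 54.4 to 111 and 142 CPM in KO and from 103 and 80.8 to 35.7 and 42.6 CPM in WT. The KO changes were 1.41 (SE 0.22, adjusted p = 0.00925) for Prdm9 and 1.63 (SE 0.33, adjusted p = 0.0182) for Dmc1, and in both the older KO libraries were the highest of all 8. Mcmdc2, needed for recombination repair, rose by 2.54 (SE 0.30, adjusted p = 0.00711) from 4.07 and 6.59 to 27.3 and 35.0 CPM, while WT held 26.5 and 33.0 CPM at 19 dpp and 23.7 and 33.0 CPM at 25 dpp. Tex15, a large germ cell protein needed for break repair, rose from 163 and 190.5 to 421 and 609 CPM, a change of 1.54 (SE 0.19, adjusted p = 0.00725).

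Among genes of the chromosome axis and of the synaptonemal complex, which holds paired chromosomes, Sycp1, the transverse filament, rose from 58.2 and 104 to 372 and 521 CPM (2.46, adjusted p = 0.00855). Sycp2, of the lateral element, rose from 69.8 and 117 to 456 and 669 CPM (2.59, adjusted p = 0.00764). Sycp3, its partner, rose from 52.5 and 108 to 357 and 459 CPM (2.34, adjusted p = 0.00910). In all 3, replicate 1 at 19 dpp was the lowest KO library and replicate 2 at 25 dpp the highest. Hormad1, which marks unsynapsed axes, changed by 2.52, and Stag3, a meiotic cohesin, by 1.82 (adjusted p = 0.00991 and 0.0113).

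**Figure D2:**
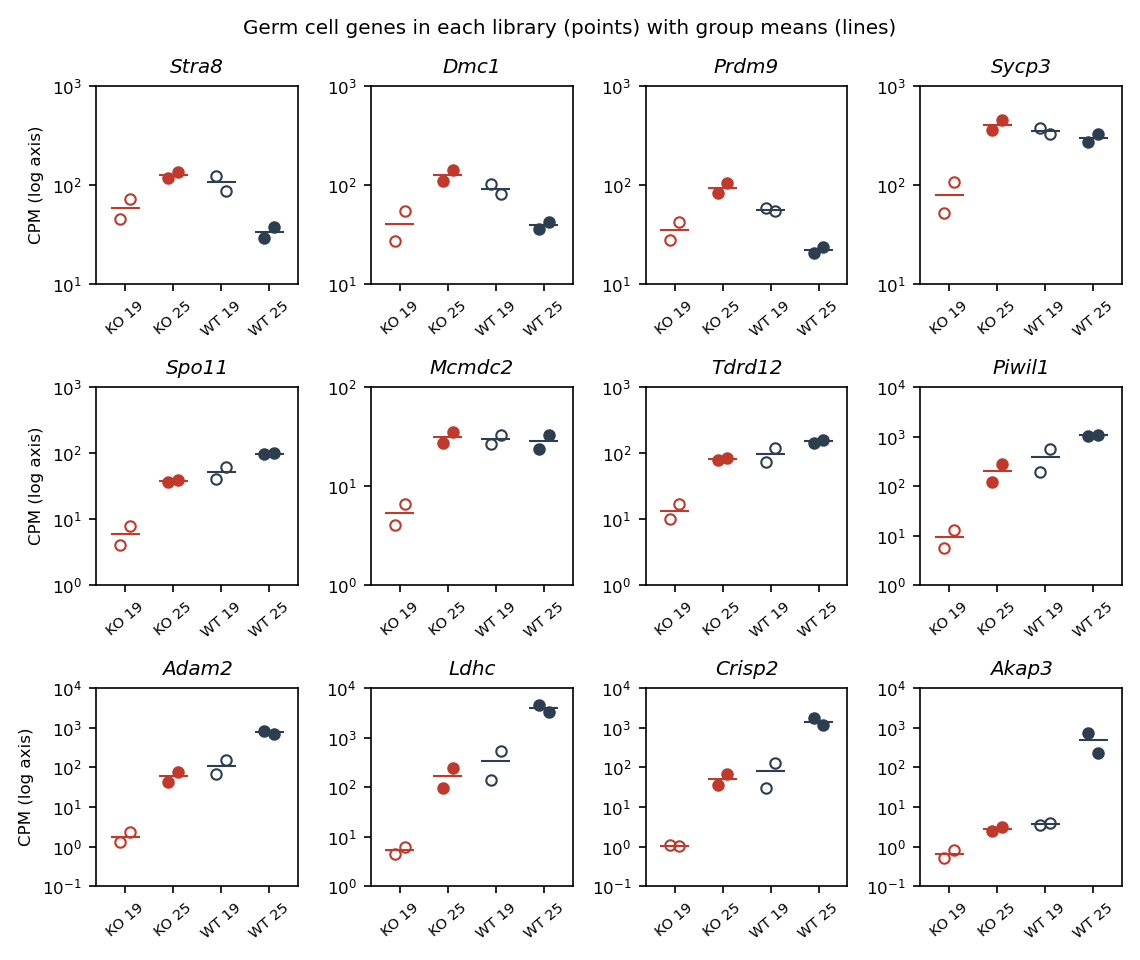
CPM on log axes of 12 germ cell genes in each library, KO in red and WT in dark blue, open at 19 dpp and filled at 25 dpp, with a line at each group mean. Stra8, Dmc1 and Prdm9 rose in KO and fell in WT, while Ldhc and Crisp2 rose in both, and Akap3 was far higher in WT at 25 dpp than in any other group.

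Later spermatocyte genes rose in KO as well, by more than the early ones in the median. Of 26 genes of pachytene to secondary spermatocytes, 19 rose and 7 passed in neither direction, with a median of 2.42. In WT 19 also rose, with a median of 2.25. Adam2 (chromosome 14, 66027329 to 66077733, mm10), a sperm surface protein first made in spermatocytes, was at 1.30 and 2.27 CPM at 19 dpp and at 43.4 and 75.4 CPM at 25 dpp, a change of 5.02 (SE 0.54, adjusted p = 0.00731). Ldhc, the germ cell lactate dehydrogenase, was at 4.40 and 6.30 CPM at 19 dpp and 96.7 and 244 CPM at 25 dpp, a change of 4.98 (SE 0.80, adjusted p = 0.0114). Replicate 2 at 25 dpp held more than replicate 1 for both genes, and neither gene's ages overlapped. Piwil1 (MIWI), the Argonaute protein of pachytene piRNAs, rose from 5.70 and 12.8 to 122 and 281 CPM (4.43, adjusted p = 0.0112). Hspa2, a spermatocyte chaperone, rose by 2.44, Ybx2, which binds stored mRNA, by 3.44, and Clgn, a chaperone of sperm surface proteins, by 3.57 (adjusted p = 0.0166, 0.00935 and 0.0103). Hfm1, a crossover helicase, rose by 2.41, and Nek2, a centrosomal kinase, by 1.93 (adjusted p = 0.00788 and 0.00807). Ccna1, the cyclin of the first meiotic division, stood at 0.168 and 0.0284 CPM at 19 dpp and at 1.46 and 1.81 CPM at 25 dpp in KO, below the 206 and 157 CPM of WT at 25 dpp. Without 1 KO library, edgeR called 0, 11, 14 and 2 rises (20, 21, 23 and 20 unadjusted) and DESeq2 19, 21, 22 and 19.

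Of 18 regulators of late meiosis and spermiogenesis, 16 rose in KO (median 2.12) and 14 in WT (median 2.23). Mybl1 (A-MYB), the transcription factor that drives pachytene genes, rose from 52.8 and 57.9 to 83.1 and 114 CPM, a change of 0.83 (SE 0.19, adjusted p = 0.0257). Rfx4, a factor of the RFX family, was at 0.545 and 1.25 CPM at 19 dpp and at 15.6 and 26.7 CPM at 25 dpp, a change of 4.50 (SE 0.52, adjusted p = 0.00754). Brdt, the testis bromodomain protein, rose by 2.27, Tcfl5 by 1.96 and Rfx2, a driver of spermatid genes, by 2.77 (adjusted p = 0.00731, 0.0152 and 0.00888). Mtl5 (tesmin) rose from 13.1 and 27.5 to 160.2 and 233 CPM (3.27, adjusted p = 0.00803). Crem, which carries the CREM activator of haploid genes among its products, rose from 10.3 and 12.6 to 26.5 and 35.3 CPM in KO and from 24.0 and 42.7 to 241 and 170.0 CPM in WT. The X-linked Taf7l, a TFIID subunit of germ cells, rose in KO and fell in WT, with changes of 1.22 (adjusted p = 0.0259) and −1.24, and Ythdc2, a helicase needed for meiotic progression, rose by 1.28. Left out in turn, the 4 KO libraries gave 0, 11, 11 and 3 rises with edgeR (15, 16, 16 and 15 unadjusted) and 15, 16, 16 and 15 with DESeq2.

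Promoters of these genes were searched on both strands for TAACNG, the core letters that MYB proteins bind, and for TGACGTCA, the full site of CREB and CREM, in the RefSeq table of 250 bases before to 50 after each start (GRCm38.p6). Among 9903 tested genes with 1 listed promoter, 19.4% held TAACNG. The share was 23.7% of 1182 that rose in KO, 31.1% of 280 that rose by more than 4-fold, 17.0% of 1090 that fell, and 21.3% of 211 that fell by more than 4-fold. TGACGTCA was in 2.95% of all, 2.62% of the rises and 1.93% of the falls. Among changes of more than 4-fold it was in 0.357% of the rises (1 gene) and 0.948% of the falls (2 genes). With all 12297 genes that have any listed promoter the TAACNG shares were 23.0% of all, 26.4% of rises and 21.2% of falls. A match is no binding site, and the shares were not tested. Of 29 called genes of the early prophase and pachytene lists with 1 listed promoter, 10 held TAACNG in the 250 bases before the start. The 3 with the most matches, ties ranked by KO change, are shown as examples of where such letters lie, from 5′ to 3′ on the gene's strand up to the base before the start, with capitals marking TAACNG or its reverse complement. Piwil1 lies at chr5:128735996-128736245 on the plus strand, Meioc, needed to extend meiotic prophase, at chr11:102665335-102665584 on the plus strand, and Msh4, a crossover protein, at chr3:153904892-153905141 on the minus strand.
Piwil1: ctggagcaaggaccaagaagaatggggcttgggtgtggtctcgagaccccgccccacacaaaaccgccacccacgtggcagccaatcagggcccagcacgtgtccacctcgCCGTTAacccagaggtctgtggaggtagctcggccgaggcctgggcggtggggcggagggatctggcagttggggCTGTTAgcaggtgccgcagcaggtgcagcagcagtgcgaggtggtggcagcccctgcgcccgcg
Meioc: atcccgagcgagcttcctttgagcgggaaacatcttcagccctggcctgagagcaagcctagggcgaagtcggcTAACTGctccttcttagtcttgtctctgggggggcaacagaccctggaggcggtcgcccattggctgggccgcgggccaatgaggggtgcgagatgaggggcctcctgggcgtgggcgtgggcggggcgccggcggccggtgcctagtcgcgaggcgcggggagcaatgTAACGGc
Msh4: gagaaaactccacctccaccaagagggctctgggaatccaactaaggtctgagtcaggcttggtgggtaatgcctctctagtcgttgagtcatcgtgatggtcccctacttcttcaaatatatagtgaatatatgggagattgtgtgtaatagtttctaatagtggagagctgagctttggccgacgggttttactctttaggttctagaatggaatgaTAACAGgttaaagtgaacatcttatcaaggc

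Genes of the piRNA pathway, by which germ cells silence transposons, rose in most cases. Of 24 tested genes 17 rose in KO (median 1.64), beside 11 that rose and 3 that fell in WT (median 0.78). Pld6, a mitochondrial nuclease of piRNA biogenesis, was at 6.71 and 7.27 CPM at 19 dpp and at 18.6 and 21.9 CPM at 25 dpp, a change of 1.53 (SE 0.17, adjusted p = 0.00682). Exd1 and Tdrd12, which act in the secondary piRNA cycle, rose by 1.80 and 2.60 (adjusted p = 0.00711 and 0.00738). Piwil2 (MILI), which binds piRNAs before and during meiosis, rose from 100.2 and 157 to 334 and 459.6 CPM. Ddx4, the germ cell helicase, rose from 74.1 and 128 to 302 and 419.8 CPM, and Mael, a nuage protein, rose by 1.78 (adjusted p = 0.0122 and 0.0140). For Piwil2, Ddx4 and Mael the younger libraries all lay under the older ones. The rises called with 1 KO library left out were 0, 13, 14 and 3 with edgeR (17, 19, 18 and 17 unadjusted) and 16, 19, 18 and 16 with DESeq2.

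Of 30 round spermatid genes 10 rose in KO, while all 30 rose in WT. The other 20 include 13 with fewer than 10 counts over the 4 KO libraries together. The median over list members with counts at either age was 0.72 with empty groups set to 3 counts. Genes nearly without counts outside WT at 25 dpp passed the filter only through that group, so their WT rise followed from the filter. Dkkl1, an acrosomal protein first transcribed in spermatocytes, was at 1.22 and 2.50 CPM at 19 dpp and at 26.9 and 51.1 CPM at 25 dpp, a change of 4.35 (SE 0.72, adjusted p = 0.0123). In WT it was at 29.0 and 97.7 CPM at 19 dpp and 959 and 677 CPM at 25 dpp. Spata16, a Golgi protein of the forming acrosome, rose from 0.377 and 0.369 to 6.71 and 14.0 CPM, Catsper2, of the sperm calcium channel, from 5.53 and 6.50 to 18.1 and 27.4 CPM, and Zpbp, of the acrosome, from 4.28 and 5.54 to 15.9 and 23.5 CPM. By contrast, Acrv1, an acrosomal protein, had 0 counts at 19 dpp and 5 at 25 dpp over both KO libraries, where WT at 25 dpp had 7537, and Catsper1 had 1 and then 2 counts beside 5893. Not all genes were at such extremes: Catsper2 and Zpbp already had 361 and 297 counts over both KO libraries at 19 dpp, and the uncalled genes outside those 13 held more counts without passing the test.

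Of 24 elongating spermatid genes 2 rose in KO and all 24 in WT. Prm1 and Prm2, the protamines that replace histones, and Tnp2, a transition protein, had no count in any of the 4 KO libraries, as did 8 of the 24 in all. WT at 25 dpp had 11975, 19241 and 17848 counts for these 3 genes over both libraries. Most of these counts were in replicate 1 (Prm1 at 317 and 10.2 CPM in replicates 1 and 2). The 8 genes without KO counts passed the filter only through WT at 25 dpp. Their WT rise and their lack of a KO rise thus followed from the filter. The limit a count of 0 allows, 3 counts, is between 0.0886 and 0.133 CPM of unscaled totals in the KO libraries and covers counting error only. Ropn1l, of the fibrous sheath and other cilia, was one of the 2 rises, from 4.82 and 6.08 to 41.6 and 69.6 CPM, a change of 3.34 (SE 0.48, adjusted p = 0.00933), and Gsg1 was the other, at 1 count over both libraries at 19 dpp and 152 at 25 dpp. Akap3 and Tsga8 held 2.43 and 3.09 CPM and 1.33 and 1.42 CPM, respectively, in the older KO libraries without passing the test (adjusted p = 0.0805 and 0.0609), beside 736 and 228 CPM and 202 and 80.6 CPM in WT at 25 dpp. With 1 KO library left out, the round spermatid rises numbered 0, 0, 7 and 0 with edgeR (10, 11, 10 and 11 unadjusted) and 10, 11, 12 and 11 with DESeq2, and those of elongating spermatids 0, 1, 1 and 0 (3, 3, 4 and 3 unadjusted) and 2, 3, 4 and 3.

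The 10 largest rises, among called genes with at least 8 CPM at 25 dpp, 10 summed counts at 19 dpp and no overlap between ages, include the sperm protein genes Crisp2, Adam3 and Qrich2, and 2 genes that carry only clone names. Tmbim7, a membrane protein gene, was first, at 0.293 and 0.170 CPM at 19 dpp and 8.63 and 15.7 CPM at 25 dpp, a change of 5.74 (SE 0.76, adjusted p = 0.00834). Crisp2, a sperm protein of acrosome and tail, was the most abundant, at 1.09 and 1.02 CPM at 19 dpp and 36.4 and 66.0 CPM at 25 dpp, a change of 5.60 (SE 0.82, adjusted p = 0.00972). Adam3, a sperm surface protein of the ADAM family, rose by 5.66, Qrich2, a sperm flagellum protein, by 5.45, and the phosphoglycerate mutase Pgam2 by 5.40 (adjusted p = 0.0340, 0.0205 and 0.0353). Tcp10c, one of several near-identical copies that can share reads, rose by 5.67, Mroh2b by 5.63 and the transporter Abcc12 by 5.38 (adjusted p = 0.0148, 0.0115 and 0.0112). For these 8 genes WT at 25 dpp held between 272 CPM (Tmbim7) and 1809 CPM (Qrich2) per library, above every KO library. Just below the 10, Adam32 rose by 5.19 (adjusted p = 0.0185). Cuzd1, called beside it, rested on 1 library, with 17.6 and 0.994 CPM in the libraries of 25 dpp and 0.210 and 0.284 CPM at 19 dpp, and its change was 1.97 (adjusted p = 0.0990) without replicate 1 of 25 dpp. It overlaps Fgfr2 on the same strand.

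Spermatocytes silence the X chromosome, and several autosomal genes copied from X-linked ones are expressed in its place. Of 8 such copies 5 rose in KO (median 1.95), and of their 8 X-linked partners 2 fell (median −0.43). Per kilobase of exon, Pdha2, a pyruvate dehydrogenase subunit, was at 2.44 and 4.13 CPM at 19 dpp and at 17.5 and 30.0 CPM at 25 dpp. Its partner Pdha1 was at 15.8 and 13.6 and then at 10.3 and 9.49 CPM per kilobase. The order of the pair thus turned between the ages, the partner being higher in both younger libraries and the copy in both older ones. Rbmxl2, an RNA-binding protein, turned likewise, from 3.90 and 8.06 to 19.4 and 26.8 CPM per kilobase, while Rbmx went from 12.0 and 9.61 to 8.27 and 7.55 CPM per kilobase. The ribosomal protein copy Rpl10l rose by 1.96 (SE 0.34, adjusted p = 0.0132) and stayed under Rpl10 in all 4 KO libraries, at 42.5 and 71.9 against 133 and 114 CPM per kilobase at 25 dpp, while in WT at 25 dpp it was above it. Cetn1, a centrin, and Utp14b, which overlaps Acsl3 on the same strand, rose by 4.23 and 0.81 (adjusted p = 0.0298 and 0.0303). Pgk2, the sperm phosphoglycerate kinase, was at 0 and 0.142 CPM at 19 dpp and at 2.30 and 3.09 CPM at 25 dpp (adjusted p = 0.0714), whereas Pgk1 fell, a change of −0.65 (SE 0.18, adjusted p = 0.0392), as did G6pdx, with −0.72 (SE 0.18, adjusted p = 0.0289). The pair Cstf2t and Cstf2, of mRNA 3′ processing, changed by 0.30 and 0.15 without passing the test (adjusted p = 0.264 and 0.700). Reads of a copy and its partner can be exchanged where their sequences match. With 1 KO library left out, edgeR called 0, 3, 4 and 0 of the copies as rises (5, 6, 7 and 6 unadjusted), and DESeq2 5, 6, 7 and 4. Of the partners edgeR then called 0, 0, 0 and 0 as falls (2, 4, 4 and 2 unadjusted) and DESeq2 0, 2, 3 and 0, and with Sertoli scaling or total counts edgeR called 0 (1 and 3 unadjusted).

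**Figure D3:**
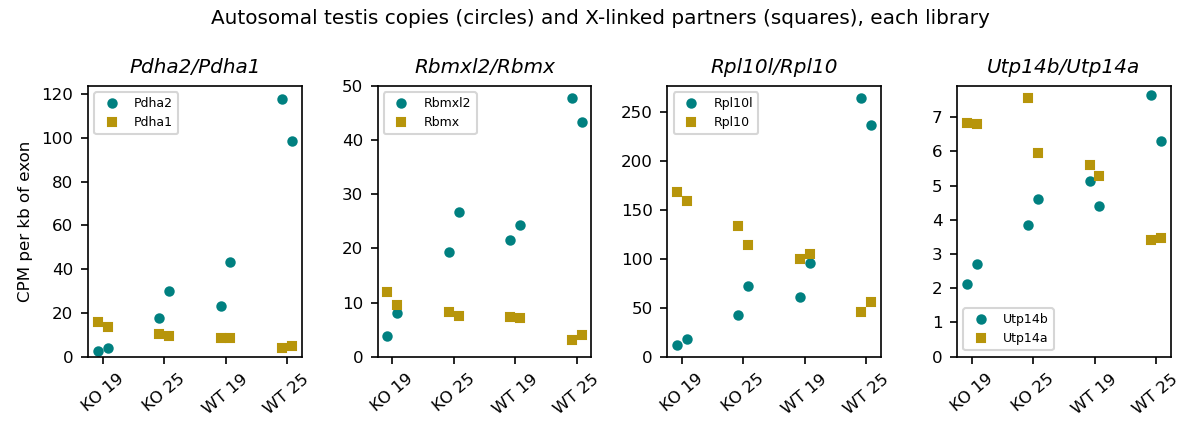
CPM per kilobase of exon in each library for 4 pairs, the autosomal copy as teal circles and the X-linked partner as yellow squares, by group. For Pdha2 and Rbmxl2 the copy was below its partner at 19 dpp and above it at 25 dpp in KO, whereas Rpl10l and Utp14b were below theirs in every KO library.

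Over the whole X chromosome, 38 of 716 tested genes rose (5.31%) and 86 fell (12.0%) in KO, with a median of −0.11. Across the 19 autosomes the share that rose was between 9.12% and 13.5% and the share that fell between 8.21% and 14.3%, with medians from −0.14 to 0.06. The share of rises on the X was thus below that of any autosome, while its share of falls was within their range. In WT 114 X-linked genes rose and 417 fell, with a median of −0.91. Over all genes 10.2% rose in KO, and on the Y chromosome 2 of 25 tested genes did (8%). These were Zfy1, a zinc finger gene of spermatocytes with a near-identical copy, from 4.07 and 6.59 to 16.4 and 13.5 CPM, a change of 1.48 (SE 0.31, adjusted p = 0.0194), and the deubiquitinase gene Usp9y, from 17.8 and 27.4 to 50.1 and 48.5 CPM, a change of 1.12 (SE 0.27, adjusted p = 0.0269). Zfy2, the copy of Zfy1, was at 3.40 and 6.25 CPM at 19 dpp and 15.3 and 11.6 CPM at 25 dpp (adjusted p = 0.0511), and Uba1y at 65.7 and 122 CPM at 19 dpp and 175 and 162 CPM at 25 dpp (adjusted p = 0.0789). The broadly expressed Ddx3y was at 114 and 104 CPM at 19 dpp and 118 and 107 CPM at 25 dpp in KO, and Eif2s3y at 85.5 and 81.0 CPM at 19 dpp and 87.6 and 90.1 CPM at 25 dpp.

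Most matrix genes of the interstitium fell. Of 12 stromal genes 11 fell in KO, where 8.87% of all genes fell, and 11 fell in WT, with medians of −1.53 and −1.34. Col1a1 (chromosome 11, 94936224 to 94953042, mm10), a chain of fibrillar collagen I, was at 622 and 532 CPM at 19 dpp and at 63.9 and 71.7 CPM at 25 dpp. No older library came near a younger one, and the change was −3.09 (SE 0.21, adjusted p = 0.00236). Col3a1, of collagen III, went from 1085 and 941 to 88.2 and 138 CPM, a change of −3.16 (SE 0.28, adjusted p = 0.00432), and Col1a2 from 1104 and 912 to 168 and 181 CPM, a change of −2.53 (SE 0.18, adjusted p = 0.00236). Pdgfra, a receptor of stromal cells, fell, with a change of −0.84 (adjusted p = 0.00873). The exception was Dcn, a small proteoglycan, at 409.8 and 325 CPM at 19 dpp and 306 and 317 CPM at 25 dpp (adjusted p = 0.455). Eln, the gene of elastin, fell from 539.9 and 436 to 40.8 and 47.8 CPM, a change of −3.46 (SE 0.18, adjusted p = 0.00112), and in WT from 312 and 332 to 98.5 and 123 CPM. With 1 KO library left out, edgeR called 2, 9, 7 and 7 of the stromal falls (11, 11, 11 and 11 unadjusted) and DESeq2 10, 11, 10 and 11, and 6 fell with Sertoli scaling.

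Matrix genes also made up 4 of the 10 largest falls, chosen by the same conditions with the ages exchanged. Col15a1, a collagen of basement membranes, was at 116 and 101 CPM at 19 dpp and at 2.43 and 3.84 CPM at 25 dpp, a change of −5.12 (SE 0.58, adjusted p = 0.00754). Col6a3 changed by −4.03, Col5a3 by −3.82, and Adamtsl2, whose product binds microfibrils, by −4.35 (adjusted p = 0.00764, 0.00236 and 0.0122). Wisp1, a secreted WNT target, fell from 49.8 and 34.2 to 1.14 and 4.33 CPM (−3.96, adjusted p = 0.0100). Cadm3, an adhesion protein of nerve that overlaps Ackr1 on the same strand, fell from 24.9 and 18.4 to 1.16 and 0.746 CPM, and S100b, a calcium-binding protein of glia, from 14.3 and 11.5 to 0.703 and 1.17 CPM. The changes of the aldehyde dehydrogenase Aldh3a1 and of Sel1l3 were −4.30 and −3.86 (adjusted p = 0.00759 and 0.0157). The tenth gene, Cyp11a1, is described with the Leydig cells.

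Genes of peritubular myoid cells, endothelium and macrophages fell in part. Of 12 myoid genes 7 fell (median −1.01, WT −0.81). Acta2, the smooth muscle actin, fell from 339.7 and 326 to 116 and 177 CPM, a change of −1.18 (SE 0.22, adjusted p = 0.0138), and Tpm2, Myl9 and the kinase Mylk, of the contractile apparatus, changed by −1.41, −0.98 and −0.70 (adjusted p = 0.0107, 0.00873 and 0.0105). Of 13 endothelial genes 7 fell (median −1.12, WT −0.87). Cdh5, the cadherin of vessel junctions, went from 69.8 and 51.1 to 16.6 and 17.3 CPM, a change of −1.83 (SE 0.22, adjusted p = 0.00711), and Kdr, the VEGF receptor, from 25.8 and 24.6 to 9.06 and 9.38 CPM, and Eng, a TGF-beta coreceptor, from 63.9 and 56.7 to 14.6 and 18.6 CPM, while Robo4, a guidance receptor of vessels, was at 17.9 and 17.2 CPM at 19 dpp and 31.6 and 19.3 CPM at 25 dpp (adjusted p = 0.201) and fell in WT. Of 15 macrophage genes 4 fell (median −1.27, WT −0.38). Adgre1 (F4/80) was at 13.5 and 9.63 CPM at 19 dpp and at 1.51 and 2.81 CPM at 25 dpp, a change of −2.43 (SE 0.66, adjusted p = 0.0429), and the chemokine receptor Cx3cr1, which overlaps Gorasp1 on the same strand, fell from 17.5 and 14.7 to 0.622 and 2.52 CPM, and the antibody receptor Fcgr1 changed by −2.91 (adjusted p = 0.0350). Mrc1, the mannose receptor, overlapped between ages, at 93.0 and 69.7 CPM at 19 dpp and 49.4 and 75.1 CPM at 25 dpp. Leave-out counts of falls were 0, 4, 1 and 4 for myoid genes, 0, 5, 3 and 2 for endothelial and 0, 0, 0 and 0 for macrophage genes with edgeR. At an unadjusted p under 0.05 they were 7, 7, 7 and 9, then 6, 11, 9 and 9, then 5, 10, 2 and 11, and with DESeq2 6, 7, 7 and 7, then 5, 11, 7 and 7, then 2, 5, 1 and 9. The 5 globin and red cell genes tested had a median change of −2.95 and none was called with edgeR, where DESeq2 called 4 and edgeR's unadjusted p was under 0.05 for 4. Hbb-bs, a beta globin, was at 176 and 27.0 CPM at 19 dpp and 18.3 and 14.2 CPM at 25 dpp, and without replicate 1 of 19 dpp the median was −1.04 and DESeq2 called 0 (1 unadjusted).

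Leydig cells make testosterone from cholesterol, and Cyp11a1 and Cyp17a1 of that path, but not Hsd3b1, were near 1 CPM in KO at 25 dpp. Cyp11a1 (chromosome 9, 58006411 to 58027023, mm10), the first enzyme of steroid synthesis, was at 31.6 and 84.4 CPM at 19 dpp and at 0.785 and 1.07 CPM at 25 dpp, the largest of the 10 falls, a change of −5.98 (SE 1.48, adjusted p = 0.0362). In WT it was at 3.15 and 73.7 CPM at 19 dpp and at 97.9 and 103 CPM at 25 dpp, so that replicate 1 of WT at 19 dpp was also low. Cyp17a1, the next enzyme towards androgens, was at 29.5 and 79.5 CPM at 19 dpp and 0.379 and 1.63 CPM at 25 dpp without passing the test (adjusted p = 0.0540). Hsd3b1 fell from 198 and 141 to 7.49 and 28.2 CPM, a change of −3.25 (SE 0.68, adjusted p = 0.0227), and Lhcgr, the luteinising hormone receptor, from 42.0 and 17.4 to 2.81 and 5.86 CPM, a change of −2.78 (SE 0.62, adjusted p = 0.0267). Star, which imports cholesterol into mitochondria, was at 120.5 and 60.1 CPM at 19 dpp and 16.6 and 18.0 CPM at 25 dpp (adjusted p = 0.0782). Insl3, a hormone of mature Leydig cells that overlaps Jak3 on the same strand, was at 3.48 and 6.39 CPM at 19 dpp and 1.19 and 3.48 CPM at 25 dpp in KO, with ages that overlap, while WT reached 22.8 and 26.1 CPM at 25 dpp.

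Of 18 Leydig genes in all, 5 fell and 1 rose in KO (median −1.13), and 3 fell and 2 rose in WT (median −0.08). Scarb1, a lipoprotein receptor, and Nr5a1, a regulator of steroid genes that Sertoli cells share, changed by −1.22 and −0.91 (adjusted p = 0.00696 and 0.0123). The 1 rise was Ptgds, a prostaglandin D synthase, at 1.17 and 1.11 CPM at 19 dpp and at 39.6 and 13.7 CPM at 25 dpp, a change of 4.55 (SE 0.61, adjusted p = 0.00784). In WT it stayed at 1.80 and 3.74 CPM at 19 dpp and 3.14 and 3.01 CPM at 25 dpp. Omission of each KO library in turn left 0, 3, 1 and 2 Leydig falls with edgeR (7, 8, 5 and 8 unadjusted) and 7, 6, 6 and 8 with DESeq2, and with Sertoli scaling edgeR called 0 (7 unadjusted). The summed level of the list was 1382 and 1391 CPM at 19 dpp and 604 and 626 CPM at 25 dpp in KO. Of 24 genes of steroid and cholesterol synthesis, 2 rose and 3 fell, where 10.2% of all genes rose and 8.87% fell. The median of the list was −0.28 and became 0.03 with Sertoli scaling. Hmgcs1, at the start of cholesterol synthesis, fell from 358 and 299 to 147 and 164 CPM, while Sqle, an epoxidase later in that path, rose by 0.69 (adjusted p = 0.0151 and 0.0343). Omitting 1 KO library, edgeR called 0, 0, 0 and 0 as rises (1, 3, 3 and 2 unadjusted) and 0, 1, 0 and 0 as falls (4, 7, 6 and 3 unadjusted). DESeq2 then called 0, 3, 2 and 2 rises and 3, 5, 5 and 3 falls, while with Sertoli scaling edgeR called 0 either way (4 rises and 5 falls unadjusted).

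**Figure D4:**
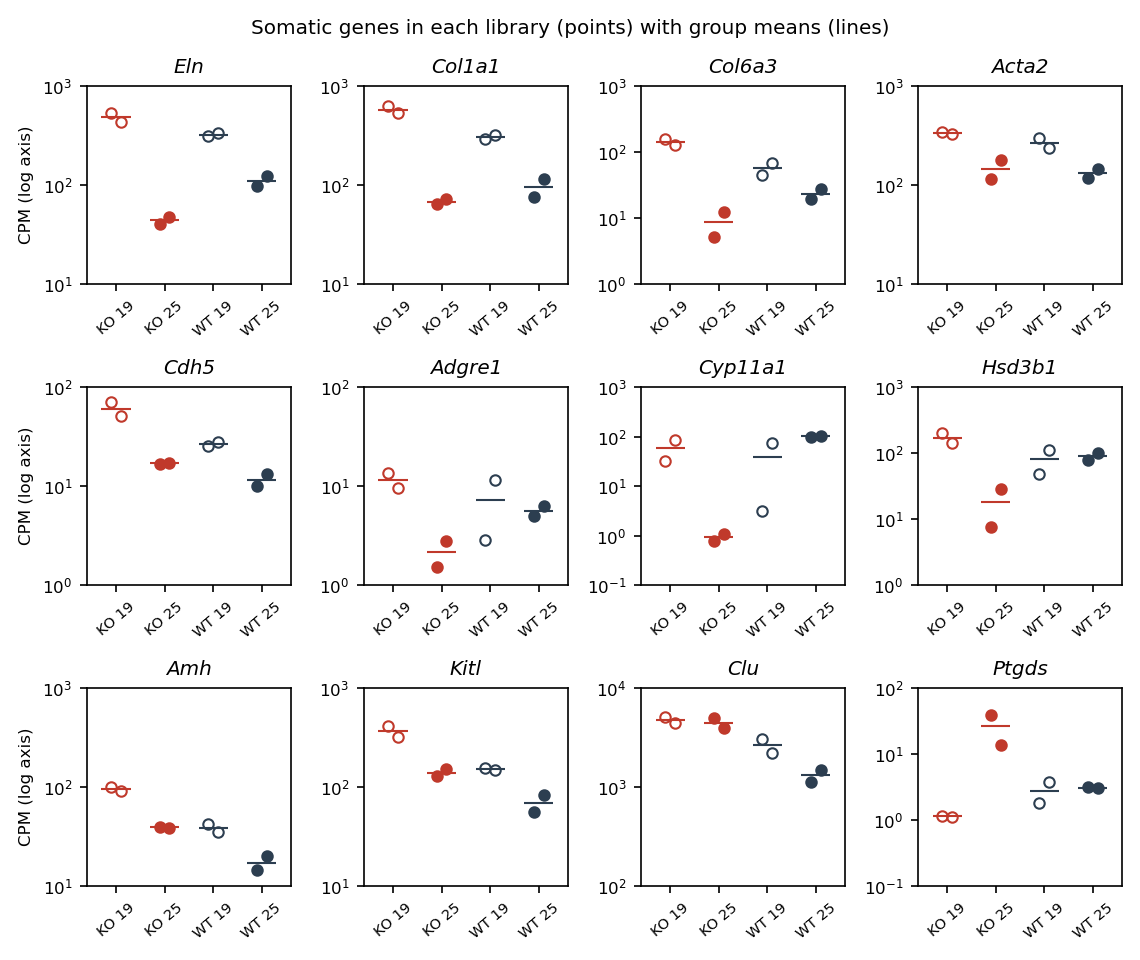
CPM on log axes of 12 somatic genes in each library, KO in red and WT in dark blue, open at 19 dpp and filled at 25 dpp, with a line at each group mean. Eln, Col1a1 and Cdh5 were lower at 25 dpp in both genotypes, Cyp11a1 was near 1 CPM in both KO libraries at 25 dpp, and Clu overlapped between the ages in KO.

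Sertoli cell genes fell in part. Of 30 tested, 12 fell in KO (median −0.46) and 25 in WT (median −0.95), and the summed level was 15003 and 13423 CPM at 19 dpp and 12446 and 10615 CPM at 25 dpp in KO. Amh, the hormone of immature Sertoli cells, was at 99.6 and 92.1 CPM at 19 dpp and at 39.4 and 39.1 CPM at 25 dpp, a change of −1.29 (SE 0.19, adjusted p = 0.00807). Kitl, the ligand of the KIT receptor on spermatogonia, fell from 412 and 321 to 128 and 151 CPM, a change of −1.39 (SE 0.21, adjusted p = 0.00889), and Gdnf, the niche factor of stem spermatogonia, from 24.7 and 16.3 to 5.63 and 9.02 CPM, a change of −1.48 (SE 0.35, adjusted p = 0.0273). In WT these 3 genes fell as well. Shbg, the androgen-binding protein, changed by −1.11 and Dhh, the hedgehog ligand that acts on the interstitium, by −1.06 (adjusted p = 0.00754 and 0.0127), the latter overlapping Rhebl1 on the same strand. Inha, the inhibin alpha subunit, fell from 658 and 656 to 159 and 201 CPM in KO, beside 160.3 and 356 CPM at 19 dpp and 202 and 234 CPM at 25 dpp in WT. Of the most abundant Sertoli genes, Clu was at 5087 and 4427 CPM at 19 dpp and 4944 and 3925 CPM at 25 dpp and the protease Ctsl at 1646 and 1484 CPM at 19 dpp and 2023 and 1385 CPM at 25 dpp, with ages that overlap, as did Amhr2, the AMH receptor, at 624 and 563 CPM at 19 dpp and 708 and 616 CPM at 25 dpp, and Aard fell, a change of −0.55 (SE 0.15, adjusted p = 0.0412). With 1 KO library left out, edgeR called 0, 5, 3 and 2 of the falls (12, 15, 14 and 13 unadjusted) and DESeq2 6, 13, 12 and 9, and 3 fell with Sertoli scaling, which uses the same genes.

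**Figure D5:**
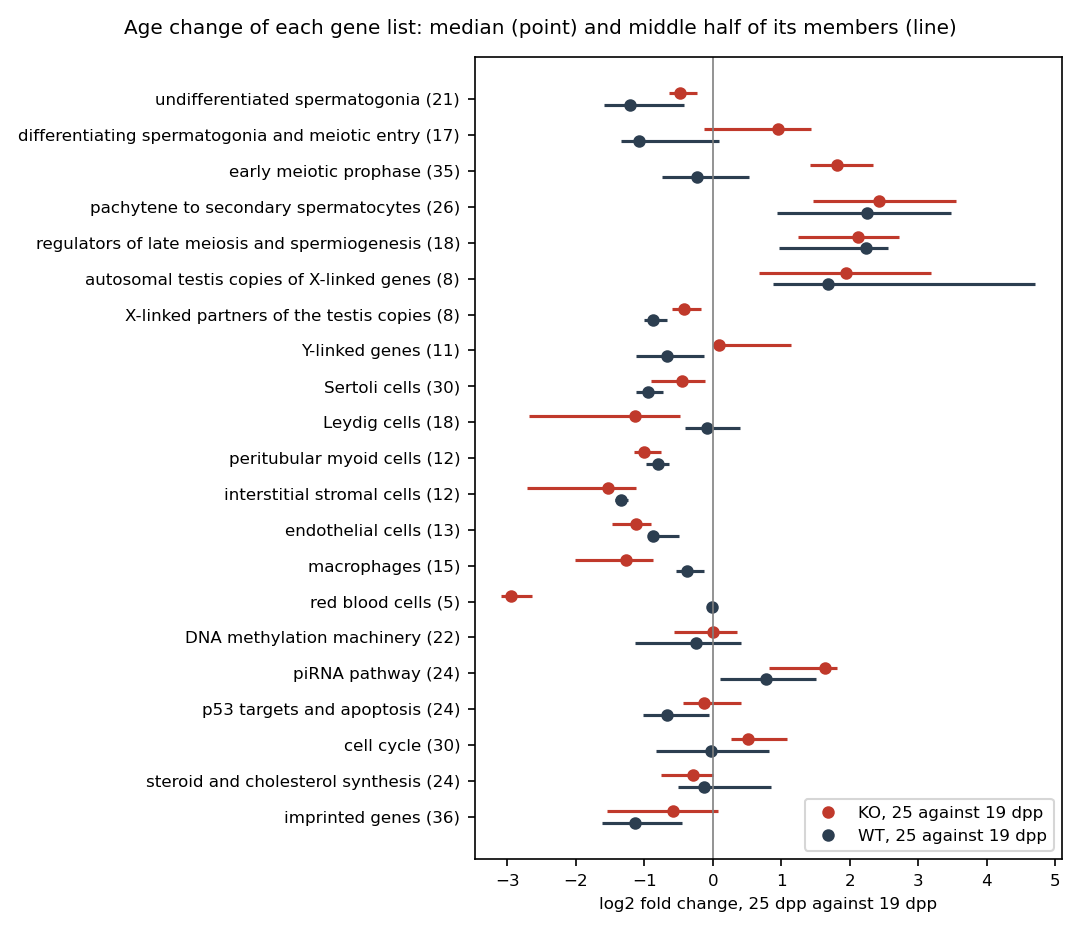
Log2 change from 19 to 25 dpp for 21 gene lists (number of tested genes in brackets), KO in red and WT in dark blue, the point at the median and the line from the lower to the upper quartile of the members. Early meiotic prophase had a median of 1.82 in KO and −0.24 in WT, and Leydig cells −1.13 and −0.08, while the stromal medians were −1.53 and −1.34. Both spermatid lists and the single epididymal gene tested were left out.

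Imprinted genes, many of them high in fetal and young organs, fell more often than they rose. Of 36 tested 14 fell and 1 rose in KO (median −0.58), beside 24 falls and 5 rises in WT (median −1.13). The maternally expressed RNAs Rian and Meg3, from one domain on chromosome 12 that carries a paternal methylation mark, fell from 60.1 and 53.3 to 10.6 and 12.3 CPM and from 222 and 228 to 63.6 and 46.1 CPM. Dlk1, the paternally expressed gene of that domain, fell from 171 and 132 to 29.9 and 21.9 CPM, and H19 from 88.2 and 77.2 to 26.1 and 11.3 CPM (adjusted p = 0.00566, 0.00888, 0.0281 and 0.0204). All 4 had both older libraries below both younger ones, and all 4 fell in WT too. Mest changed by −2.63, Gnas by −0.91 and Peg10 by −0.81 (adjusted p = 0.00764, 0.00788 and 0.0151). Counts per gene do not tell the parental alleles apart. Without 1 KO library there were 0, 6, 7 and 1 falls with edgeR (14, 14, 13 and 13 unadjusted) and 10, 11, 11 and 12 with DESeq2.

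Of 30 cell cycle genes 14 rose and 1 fell in KO (median 0.52), beside 10 and 11 in WT (median −0.03). Mki67, the proliferation antigen, was at 95.1 and 131 CPM at 19 dpp and at 237 and 293 CPM at 25 dpp, a change of 1.22 (SE 0.18, adjusted p = 0.00862), and Top2a, the replication topoisomerase, rose by 1.46 (adjusted p = 0.0155). Ccnb2 and Cdc20, of the division machinery shared with meiosis, rose by 1.66 and 1.58 (adjusted p = 0.00983 and 0.0101). Ccnd3, a D-type cyclin, moved in opposite directions, from 52.2 and 38.5 to 22.4 and 18.9 CPM in KO and from 30.1 and 30.2 to 114 and 69.8 CPM in WT. The median of 24 p53 targets and apoptosis genes was −0.13 and became 0.16 with Sertoli scaling. Where 10.2% of all genes rose, 2 of these 24 did, no excess over that share within this list. It does not hold Perp, a p53-induced gene that also rose and is described below. The 2 rises were Mdm2, the inhibitor of p53, from 69.5 and 77.6 to 117 and 122 CPM, a change of 0.70 (SE 0.13, adjusted p = 0.0127), and Pmaip1 (NOXA), a trigger of apoptosis, from 3.31 and 4.71 to 8.25 and 9.02 CPM, a change of 1.10 (SE 0.26, adjusted p = 0.0275). The cell cycle rises with each KO library omitted were 0, 14, 8 and 0 with edgeR (12, 20, 16 and 11 unadjusted) and 13, 20, 15 and 12 with DESeq2.

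Some genes rose in KO but not in WT, and outside the germ cell lists. Galnt15, a glycosyltransferase, was at 10.7 and 7.38 CPM at 19 dpp and at 87.0 and 45.0 CPM at 25 dpp in KO, a change of 2.87 (SE 0.58, adjusted p = 0.0209), and fell in WT from 11.3 and 3.59 to 1.58 and 1.29 CPM. Atp8b4, a lipid flippase, rose from 2.43 and 3.21 to 33.6 and 76.6 CPM in KO, a change of 4.28 (SE 0.50, adjusted p = 0.00735), beside 1.48 and 2.01 CPM at 19 dpp and 3.36 and 1.81 CPM at 25 dpp in WT. Perp, a p53-induced membrane protein, rose from 0.755 and 0.880 to 10.7 and 6.36 CPM in KO, a change of 3.37 (SE 0.38, adjusted p = 0.00687), beside 3.05 and 3.16 CPM at 19 dpp and 1.53 and 1.99 CPM at 25 dpp in WT. The difference between KO and WT was called for all 3, and in each the libraries of KO at 25 dpp were the highest of the 8.

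The levels that KO reached at 25 dpp can be set beside those of WT at 19 dpp, a comparison not tested here. The summed level of pachytene genes was 1462 and 2487 CPM in KO at 25 dpp, beside 1894 and 3995 CPM in WT at 19 dpp and 17093 and 13481 CPM in WT at 25 dpp. That of round spermatid genes was 115 and 204 CPM in KO at 25 dpp, beside 128 and 381 CPM in WT at 19 dpp and 7729 and 4435 CPM in WT at 25 dpp. Stromal genes summed to 934 and 1017 CPM in KO at 25 dpp, beside 1992 and 2168 CPM in WT at 19 dpp and 680.1 and 914 CPM in WT at 25 dpp. The KO libraries of 25 dpp thus overlapped those of WT at 19 dpp for both germ cell lists and lay below them for the stromal list.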

How the data were processed

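RNA of whole testis was sequenced in 8 libraries, 2 in each of 4 groups. The files hold counts per gene, which the authors made with STAR 2.7.0a and featureCounts 1.5.1 on mm10, per the submitters' processing notes; the strand setting, the handling of reads with several matches and the annotation are not given in the sources used here. Libraries were stranded mRNA libraries, per the labels' protocols. The 54087 gene rows were used, and 1205 rows for repeats, 4.10% to 5.68% of a library, were left out of library sizes and tests. Of the gene rows, 28413 matched 1 GENCODE gene of mm10 by symbol, from which locations and exon lengths came.

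Deposited counts of all 8 libraries were fitted together in edgeR 4.0.16 (R 4.3.3) with TMM scaling, filterByExpr by group, 1 mean per group and robust quasi-likelihood tests, which left 23353 genes and 4 residual degrees of freedom. The 3 contrasts were the age change in KO, that in WT and their difference. DESeq2 1.42.0 and limma 3.58.1 were alternatives. The limit for genes without counts covers counting error only, while each SE also holds the spread between the libraries. Genes on overlapping rows, 6 on the same and 21 on the opposite strand of a protein-coding gene, may hold reads of their neighbour.

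The 24 gene lists and the choice of this comparison were made with earlier results of these data known. Names came from a rule: Dnmt3a, the 10 largest called changes each way, the 6 largest differences between KO and WT each way, and per list up to 3 members by smallest p and 3 by highest level. Of 159 genes described, 117 met it and 42 were chosen after their values were seen. A further gene that the rule names is not reported here. The scripts were tested on simulated data.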

Additional observations from a re-analysis of the deposited data

Results flagged for a closer look

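Of the genes named above, 56 had a change from 19 to 25 dpp that differed between KO and WT by edgeR's quasi-likelihood test of the difference itself, and each value below is the KO log2 change minus the WT log2 change. Groups of 2 libraries gave no check for single libraries that stand apart. In germ cells before and at meiotic entry the difference was 2.76 for Stra8, 2.03 for Taf4b, 2.15 for Dazl, 2.58 for Tex101, 2.17 for Sohlh2, 2.68 for Rhox13, 1.72 for Zbtb16 and 1.02 for Foxo1. For genes of early meiotic prophase it was 1.71 for Spo11, 2.61 for Mcmdc2, 1.97 for Tex15, 2.19 for Sycp1, 1.83 for Sycp2, 2.58 for Sycp3, 2.75 for Prdm9, 2.86 for Dmc1, 2.46 for Hormad1, 1.68 for Rec114 and 2.41 for Mei4. Later germ cell regulators and piRNA genes gave 2.37 for Hfm1, 2.46 for Mtl5, 2.46 for Taf7l, 1.53 for Ythdc2, 1.25 for Exd1, 1.94 for Tdrd12 and 1.51 for Piwil2. Spermatid genes lay on the other side, at −1.85 for Catsper2, −5.00 for Tsga8 and −4.99 for Akap3, since WT rose by more. The 4 Y-linked genes were at 2.04 for Zfy1, 1.79 for Usp9y, 1.93 for Uba1y and 1.21 for Ddx3y. Genes of Sertoli and Leydig cells were at 0.94 for Ctsl, −7.37 for Cyp11a1, −3.40 for Hsd3b1, −0.80 for Scarb1, 4.40 for Ptgds and −5.24 for Insl3. The matrix genes among these 56 fell further in KO. Their differences were −1.41 for Col1a1, −1.02 for Col1a2, −1.79 for Col3a1, −1.92 for Eln, −4.66 for Col15a1, −2.75 for Col6a3 and −2.13 for Col5a3. Over the 12 genes of the stromal list the difference was called for 4 and not for 8, with a median of −0.68 and an upper quartile of 0.12. The glial and metabolic genes S100b and Aldh3a1 were at −3.00 for S100b and −3.07 for Aldh3a1, and the vessel gene Robo4 at 2.14. Among cell cycle and apoptosis genes the values were 1.71 for Mki67, 1.48 for Top2a, −2.74 for Ccnd3 and 1.70 for Pmaip1. Of the remaining genes, the difference was 3.71 for Atp8b4, 4.19 for Perp and 5.24 for Galnt15, the last being the largest positive one.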

How the results depend on the processing

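The counts of calls over all genes and the values of the genes described were recomputed with another scaling, filter, tool or null hypothesis, with a replicate block, with each library left out and, for the KO change, with the KO libraries alone. The counts per list were recomputed with other scalings, limma-voom and DESeq2, and with each KO library left out. Chromosome shares, promoter shares and the levels of copies and partners were not recomputed. Of 4027 such values for single genes, 3181 kept their direction and side of the threshold, 772 lost and 65 gained the call, and 9 changed sign, none of which was called in either setting. The 4451 KO calls (2379 higher, 2072 lower) became 2555 with Sertoli scaling (640 lower), 7318 with DESeq2's Wald test (4289 higher), 6698 with only the KO libraries (3309 lower), and 241 with glmTreat against a 2-fold change (125 higher, 116 lower). Leaving out 1 library gave from 17 to 4794 calls, from 3 to 2666 higher and from 14 to 2533 lower. With DESeq2, added after seeing the data, leaving out replicate 1 of KO at 19 dpp gave 1120 lower. The WT calls numbered 5725 with glmTreat. The difference between KO and WT, 4464 calls, became 7517 with total counts (5548 higher), 2708 with Sertoli scaling (176 higher), 7884 with DESeq2 (2963 higher, 4921 lower) and 877 with glmTreat (125 higher, 752 lower), and limma-voom gave 4281 lower. Leaving out 1 library gave from 1117 to 5624 such calls, from 234 to 2414 higher and from 883 to 3210 lower. The cause of these shifts was not tested, beyond the fewer residual degrees of freedom when a library is left out.

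Signs changed for Foxo1 (0.10), Clu (0.20) and Dcn (0.079) with Sertoli scaling. With 1 library left out, Zbtb16 ranged from −0.39 to 0.44 (−0.058 without KO 19 dpp replicate 1), Ddx3y from −0.024 to 0.12 (−0.0036 without KO 19 dpp replicate 2), Clu from −0.28 to 0.058 and Ctsl from −0.18 to 0.37. Correlations of same-numbered deviations ran from −0.09 to 0.36 over the 6 pairs of groups, the highest between KO at 25 dpp and WT at 19 dpp. With 2 libraries a group they have no reference spread, so they cannot decide whether the replicate number pairs the libraries. With the number as a replicate block, KO had 4348 calls (2342 higher, 2006 lower) and the difference 4348. Counts limit the spermatid lists, where 3 counts is the smallest level told from 0.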
